A study of Mus musculus with 9 samples.

Results

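The interleukin 1 family and its receptors were followed in mouse nasal mucosa through an allergic rhinitis model. Its members were taken by gene symbol as Il1a, Il1b, Il1rn, Il1r1, Il1r2, Il1rap, Il18, Il33 and Il1rl1, with each gene represented by the brightest of its probe sets that match that gene alone. Of these 9 genes, 7 had such a probe set, 1 each, among 19938 genes with a single-gene probe set. Il1r1, the signalling receptor of IL-1, and Il1rl1, the receptor of IL-33, had none in the annotation used and were not analysed here.

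The series holds 9 Affymetrix Mouse Gene 1.0 ST arrays of nasal mucosa from BALB/c mice, labelled male and aged 6 to 8 weeks, in 3 groups of 3. The 4-week group was sensitised and challenged with ovalbumin (OVA), an egg white protein that served as the allergen, and was killed when 4 weeks had passed since the last challenge. The OVA group had the same treatment and was killed only 2 hours after its final challenge. The control group received saline for both sensitisation and challenge. All values are log2 expression from the authors' RMA, a normalization over arrays that leaves medians of the named probe sets between 6.38 and 6.45. Across probe sets, pairs of arrays correlated at r = 0.986 to 0.992 within a group and at 0.973 to 0.988 between groups. Whether the 3 arrays of a group stand for 3 animals is not in the labels, and the spread that the p-values rest on may therefore be technical.

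The tissue label was met by Omp, the marker of mature olfactory neurons, at 11.47 to 12.43 over the 9 arrays, and by Muc5b, a secreted mucin, at 11.28 to 12.35. Genes of the 8 on the tissue list differed between groups, these 2 included, though neither was called. Omp was lower in OVA (11.69 to 11.91) than in the arrays labelled control (12.08 to 12.43). Muc5b was higher at 4 weeks (11.67 to 11.98) than in the arrays labelled control (11.28 to 11.57). In OVA against the arrays labelled control, 5 of the 8 had an unadjusted p under 0.05, where 16.4% of all probe sets were so. Among called genes, Bpifb9a, a secreted protein of the nasal lining, was lower in OVA than in the arrays labelled control (log2 change −4.80, limma adjusted p = 0.0415, lost in 6 of 9 fits without 1 array), and the epithelial genes Epcam (0.60, adjusted p = 0.00792) and Krt18 (0.48, adjusted p = 0.017) were higher at 4 weeks than in those arrays. Their part in the results below was not tested. The sex label was not met. Xist, the RNA of the inactive X chromosome, stood at 4.27 to 4.42 in the 4-week arrays and 4.22 to 4.36 in the OVA arrays, against 10.62 to 11.11 in the arrays labelled control, and the Y-linked Eif2s3y at 8.15 to 8.46 and 8.08 to 8.47, against 3.00 to 3.58. The arrays labelled control thus carried a female pattern and the other 6 a male one, and in every comparison with the arrays labelled control below, the effects of treatment and of this difference cannot be told apart. The comparison of the 4-week with the OVA group has the male pattern on both sides. Both groups carry the same age label, so a difference in age when killed could not be checked. Any such difference cannot be told apart from the time since challenge.

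The IL-1 family is a group of cytokines that start and tune inflammation at barriers such as the nasal lining. IL-1 alpha and IL-1 beta bind the receptor IL-1R1, which recruits the accessory protein encoded by Il1rap and then MyD88, IRAK kinases and TRAF6, and this leads to NF-kappaB activation and to the transcription of chemokines and further cytokines. The pathway carries its own brakes: Il1rn encodes a receptor antagonist that occupies IL-1R1 without recruiting the accessory protein, and Il1r2 encodes a decoy receptor without a signalling domain. IL-1 beta and IL-18 are made as precursors that caspase-1 cleaves in the inflammasome, whereas IL-33 is stored in nuclei of epithelial and other barrier cells, is released on damage, and acts through its receptor on mast cells and innate lymphoid cells. Transcript levels say nothing of cleavage or release.

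Il1a and Il1b are direct neighbours among the protein-coding genes of chromosome 2 in the RefSeq annotation of GRCm38.p6, and Il1rn lies on the same chromosome. The 250 bases before their annotated starts are shown because these were the members whose transcripts passed the test in at least 1 comparison. The sequences are those of RefSeq (GRCm38.p6) and run 5' to 3' on the gene's strand, with Il1a at chr2:129309973-129310222 (minus strand), Il1b at chr2:129371140-129371389 (minus strand) and Il1rn at chr2:24336610-24336859 (plus strand). Capitals mark matches to the TATA box TATAAA and to the AP-1 motif TGANTCA, a binding motif of Fos and Jun factors.
Il1a: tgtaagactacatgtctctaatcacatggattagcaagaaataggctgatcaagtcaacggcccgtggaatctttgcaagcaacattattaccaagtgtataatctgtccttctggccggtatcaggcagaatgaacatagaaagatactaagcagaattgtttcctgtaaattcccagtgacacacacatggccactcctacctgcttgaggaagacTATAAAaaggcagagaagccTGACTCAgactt
Il1b: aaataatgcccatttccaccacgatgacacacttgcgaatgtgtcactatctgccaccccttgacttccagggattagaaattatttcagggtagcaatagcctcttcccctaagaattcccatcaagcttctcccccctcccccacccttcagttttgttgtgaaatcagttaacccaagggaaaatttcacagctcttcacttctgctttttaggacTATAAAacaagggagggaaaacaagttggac
Il1rn: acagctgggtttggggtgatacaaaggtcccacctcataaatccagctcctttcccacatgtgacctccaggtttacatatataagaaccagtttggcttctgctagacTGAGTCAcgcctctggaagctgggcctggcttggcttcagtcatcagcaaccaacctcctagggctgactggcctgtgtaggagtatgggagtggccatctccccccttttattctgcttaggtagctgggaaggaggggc

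Il1a had its TATA box 32 to 27 bases before the start, and Il1b had one 31 to 26 bases before it, a similar place in both neighbours. The window of Il1rn had none, and neither had those of its other 2 annotated starts. The AP-1 motif lay 12 to 6 bases before the start of Il1a and 141 to 135 before the first listed start of Il1rn, and was not found in the window of Il1b. On either strand, TATAAA occurred in 12.4% and TGANTCA in 6.7% of the 32851 windows of this length in the same table. The kappaB consensus (found in 7.3% of windows) and the STAT motif TTCNNNGAA (7.0%) were searched too and had no match in these 3 windows. A match or its absence describes letters in the window only.

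The agonist ligand Il1b was higher in both groups that had met the allergen. Its log2 values were 6.98, 7.41 and 7.25 on 4-week replicates 1, 2 and 3, 7.68, 8.33 and 7.55 on the OVA replicates, and 6.09, 5.59 and 5.30 on those labelled control. Every 4-week and OVA array lay above every array labelled control, and every 4-week array below every OVA array. The OVA mean was 4.57-fold above that of the arrays labelled control (log2 change 2.19, SE 0.24, n = 3 per group; limma adjusted p = 0.00764), with a 95% interval of 1.64 to 2.74. The 4-week mean was 2.93-fold above it (log2 change 1.55, SE 0.24, adjusted p = 0.00624), with an interval of 1.00 to 2.10. Between the 4-week and OVA groups the log2 change was −0.64 with an interval of −1.19 to −0.09, and did not pass after adjustment over all probe sets (adjusted p = 0.153). Both calls against the arrays labelled control held in each of the 9 fits that left out 1 array. Among 19938 genes, Il1b had the 15th largest log2 rise in the OVA comparison and the 12th largest in the 4-week comparison with the arrays labelled control.

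Il1a, the other agonist, which is active without caspase-1 cleavage, followed the same order of groups at a dimmer level. It stood at 4.85, 5.19 and 4.88 on the 4-week arrays, at 4.90, 5.38 and 5.48 on the OVA arrays, and at 4.12, 4.01 and 3.58 on the arrays labelled control. Again no array labelled control reached any array of the other groups, while the 4-week and OVA arrays overlapped. The log2 change was 1.35 for OVA against the arrays labelled control (2.56-fold, SE 0.19, n = 3 per group; limma adjusted p = 0.016) and 1.07 for 4-week against them (2.10-fold, SE 0.19, adjusted p = 0.00861). The OVA call was lost without control replicate 2 (log2 change 1.41, adjusted p = 0.0593) and without OVA replicate 3 (1.24, adjusted p = 0.0584), whereas the 4-week call held in all 9 such fits. The 4-week minus OVA change was −0.28 with an interval of −0.70 to 0.14 (adjusted p = 0.386). Il1a lay outside the brightest 60% of probe sets by mean, and no detection calls came with the values, so its signal over background is unknown. Its lowest value on the arrays labelled control, 3.58, was the highest that Eif2s3y had on the same arrays, which carried no male pattern. All 3 of its values there (3.58 to 4.12) lay below Xist on the arrays with the male pattern (4.22 to 4.42). Il1a was thus not shown to lie above background on the arrays labelled control, from which both fold changes are measured.

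**Figure D1:**
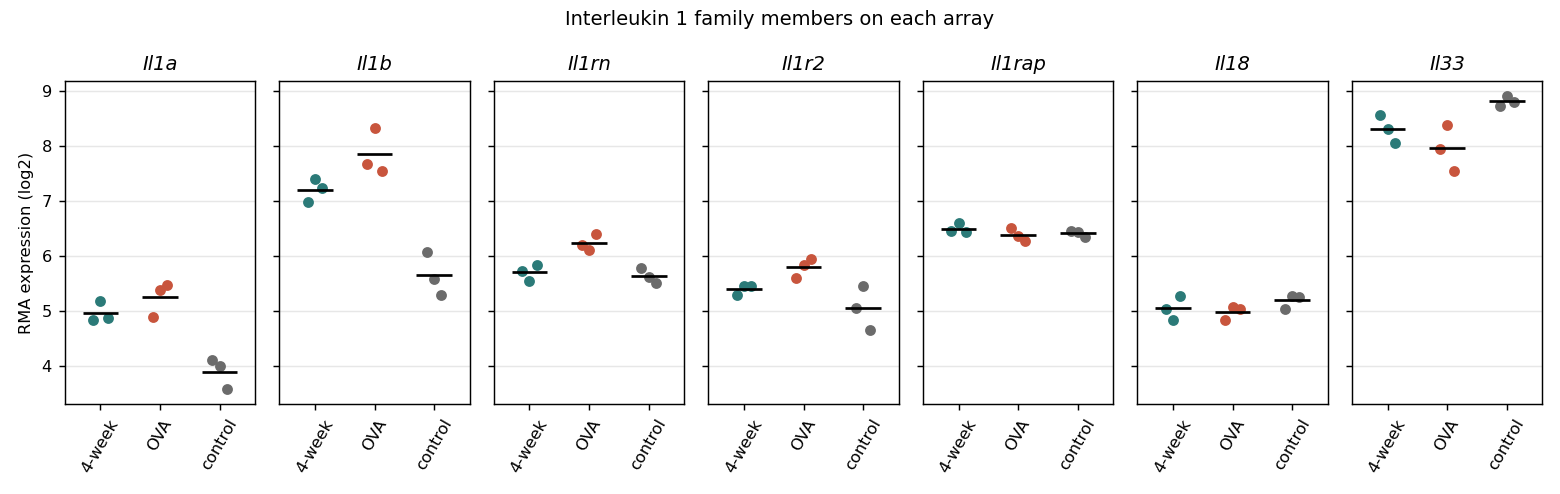
Log2 RMA expression of the 7 measured genes on each array, in the 4-week, OVA and control groups from left to right in each panel (points are arrays, bars are means of 3). Il1a and Il1b are higher on all 6 allergen arrays than on the 3 arrays labelled control, Il1rn is highest on the 3 OVA arrays only, and Il33 is highest on the 3 arrays labelled control.

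The antagonist Il1rn showed another course. It stood at 5.74, 5.55 and 5.84 on the 4-week arrays, at 6.21, 6.11 and 6.41 on the OVA arrays, and at 5.79, 5.63 and 5.51 on the arrays labelled control. All 3 OVA arrays lay above all 6 others, and the 4-week arrays overlapped those labelled control. Il1rn was 1.52-fold higher in OVA than in the arrays labelled control (log2 change 0.60, SE 0.11, n = 3 per group; limma adjusted p = 0.0415) and 1.45-fold lower at 4 weeks than in OVA (log2 change −0.53, SE 0.11, adjusted p = 0.0283). At 4 weeks its difference from the arrays labelled control was 0.07, with an interval of −0.18 to 0.32 (adjusted p = 0.696). Both calls were close to the threshold. The OVA call was lost in 8 of the 9 fits without 1 array, all but that without 4-week replicate 2, with adjusted p from 0.0473 to 0.133 over the 9 fits. The 4-week minus OVA call was lost without control replicate 2, OVA replicate 1 or 3, or 4-week replicate 1 or 2, with adjusted p from 0.0327 to 0.0941.

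The 4-week difference from the arrays labelled control was expressed as a share of the OVA difference from them, on the log2 scale. This share was 79% for Il1a, 70.8% for Il1b, 59.2% for Il33, 46.7% for Il1r2 and 11.2% for Il1rn. With 1 array left out it ran from 69.9% to 86.2% for Il1a and 66.2% to 79.5% for Il1b, but from 0% without control replicate 3 to 24.1% without 4-week replicate 2 for Il1rn, and for Il1r2 it fell to 26.8% without control replicate 3. Il18, which passed in no comparison, had a share of 67.9%. It ran from 18.3% without 4-week replicate 2 to 120.9% without 4-week replicate 3. Il1rap had −271.3%, on an OVA difference of −0.03. Both differences in each share use the same arrays labelled control, so whatever sets those arrays apart, their female pattern included, enters both. A high share therefore does not show that an effect of the allergen lasted. To compare the ligand with its antagonist, the change in the log2 ratio of Il1b to Il1rn within each array was tested after the values had been seen. The ratio was 1.59 higher in OVA and 1.48 higher at 4 weeks than in the arrays labelled control, with no overlap of groups in either case (exact two-sided permutation p = 0.1 each, the smallest that 3 against 3 arrays can give). Between the 4-week and OVA groups it differed by −0.11 (exact permutation p = 0.8). Of the 9 such ratio comparisons computed, against Il1rn, Il1r2 and Il1a, none could pass, and the lowest p adjusted over the family was 0.15. A change in this ratio shows unequal change of the probe sets and not a ratio of molecules.

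Il1r2, the decoy receptor, had its highest values in OVA but passed in no comparison. It stood at 5.30, 5.46 and 5.46 on the 4-week arrays, at 5.61, 5.84 and 5.94 on the OVA arrays, and at 5.06, 5.46 and 4.66 on those labelled control. The OVA arrays lay above all others, while the 4-week arrays overlapped those labelled control, whose values were the most spread. The log2 change was 0.74 in OVA against the arrays labelled control (interval 0.33 to 1.14; limma adjusted p = 0.091), −0.39 at 4 weeks against OVA (adjusted p = 0.22), and 0.35 at 4 weeks against the arrays labelled control (adjusted p = 0.213).

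Il1rap, the accessory chain shared by the receptors of IL-1 and IL-33, had the narrowest intervals around 0. It lay between 6.44 and 6.60 on the 4-week arrays, between 6.28 and 6.51 on the OVA arrays and between 6.35 and 6.46 on those labelled control, and all groups overlapped. The interval of its log2 change was −0.21 to 0.15 for OVA and −0.10 to 0.26 for 4-week, each against the arrays labelled control. Il18, whose product is another caspase-1 substrate and drives interferon gamma production, lay between 4.84 and 5.29 on the 4-week arrays, 4.83 and 5.07 on the OVA arrays and 5.05 and 5.29 on those labelled control. Its log2 change was −0.22 (interval −0.50 to 0.06) for OVA and −0.15 (interval −0.43 to 0.13) for 4-week against the arrays labelled control, with limma adjusted p of 0.417 and 0.425.

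Il33, the alarmin, had lower values in both allergen groups, in the direction opposite to the IL-1 ligands. It stood at 8.56, 8.31 and 8.06 on the 4-week arrays, at 7.96, 8.38 and 7.55 on the OVA arrays, and at 8.73, 8.92 and 8.80 on the arrays labelled control. All 6 allergen arrays lay below all 3 arrays labelled control. The log2 change was −0.85 in OVA (interval −1.30 to −0.41; limma adjusted p = 0.0818) and −0.51 at 4 weeks (interval −0.95 to −0.06; adjusted p = 0.115), and neither passed over all probe sets. Without OVA replicate 2, the highest OVA array, the OVA change was −1.07 and passed (adjusted p = 0.0375). The 4-week minus OVA change was 0.35, with an interval of −0.10 to 0.80.

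**Figure D2:**
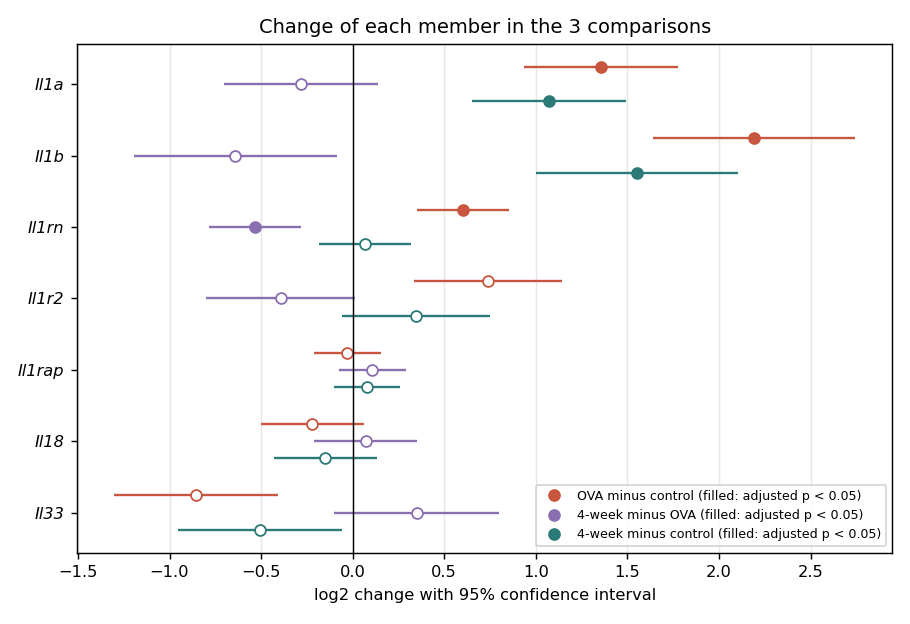
Log2 change of each measured gene with its 95% interval from the limma fit, in 3 comparisons, OVA against control, 4-week against OVA and 4-week against control (filled points have an adjusted p under 0.05). The changes that pass are those of Il1a, Il1b and Il1rn in OVA, of Il1a and Il1b at 4 weeks against control, and of Il1rn at 4 weeks against OVA.

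In all, 3 of the 7 genes rose in OVA against the arrays labelled control (Il1a, Il1b and Il1rn), where 0.782% of the 23410 probe sets tested were called higher, 0.521% lower and 1.3% in all. None fell, with 1 lower at an unadjusted p under 0.05. Their median log2 change was 0.60, against −0.02 over all probe sets. Groups did not overlap for 4 genes that were higher and 1 that was lower, where 10.4% and 11.1% of probe sets were so, 21.5% in all. At 4 weeks against the arrays labelled control, 2 rose (7.92% of probe sets called higher, 6.45% lower, 14.4% in all), with a median of 0.08 against −0.04. None fell, with 1 lower at an unadjusted p under 0.05. Groups did not overlap for 2 that were higher and 1 that was lower, where 16.6% and 18.4% of probe sets were so, 35% in all. At 4 weeks against OVA, 1 fell (2.51% of probe sets called lower, 3.81% higher, 6.33% in all), with a median of −0.28 against −0.02, and none was higher even at an unadjusted p under 0.05. Groups did not overlap for 3 that were lower and 0 that were higher, where 13.7% and 14.5% of probe sets were so, 28.1% in all. In a moderated F test for any difference among the groups, which 12.4% of probe sets passed, Il1a, Il1b and Il1rn passed (adjusted p = 0.00697, 0.00443 and 0.0165) and Il33 (0.0506), Il1r2 (0.059), Il18 (0.401) and Il1rap (0.561) did not. Scaling moved the balance of calls over all probe sets: 60% of OVA calls were higher as deposited and 49.5% after quantile normalization, and for 4-week against OVA and against the arrays labelled control the share was 60.3% and 55.1% as deposited and 78.1% and 75.7% after median centring. Under both scalings the calls of the 7 genes in the 3 comparisons were those given above.

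Across the 9 arrays the 2 agonists ran together, with Pearson's r = 0.95 between Il1a and Il1b, given as a description of arrays that share groups. Il1rn correlated with Il1b at 0.68 and with Il1a at 0.66, and Il33 with Il1b at −0.72, with Il1a at −0.78 and with Il1rn at −0.80. Among 19937 other genes, the pattern most like that of Il1b was that of Birc3, an inhibitor of apoptosis induced by NF-kappaB (r = 0.98), followed by D17H6S56E-5, Ppp1r15b, Gnl3 and Hnrnpa2b1 (0.98 to 0.97). Most like Il1a were Parp8, Slc45a3, Jak2, D17H6S56E-5 and Kctd12 (0.96 to 0.95). Most like Il1rn were Cfp, the complement factor properdin (0.96), B4galt5, Litaf, Snora16a and Adam9 (0.95 to 0.94).

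For the gene lists that follow, the shares over all probe sets to set beside each count are those given above for calls and for groups without overlap. An unadjusted p under 0.05 was reached by 16.4% of probe sets in OVA against the arrays labelled control, 23.9% at 4 weeks against OVA and 32.9% at 4 weeks against the arrays labelled control.

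The remaining members of the family gave few calls. Of 5 other ligands, the IL-36 cytokines Il1f6, Il1f8 and Il1f9, their antagonist Il1f5 and Il1f10, none was called by limma in any comparison, with 1 at an unadjusted p under 0.05 in each. Il1f6, Il1f8 and Il1f10 lay between 3.07 and 4.08 on all 9 arrays, below Xist on those with the male pattern (4.22 to 4.42). These 3 were thus not shown to lie above background. Il1f9, which encodes IL-36 gamma, had a log2 change of −0.59 at 4 weeks against OVA (adjusted p = 0.205) and of 0.46 in OVA against the arrays labelled control (adjusted p = 0.411), and all groups overlapped. Of 7 other receptors and soluble regulators, only Il18bp, the secreted inhibitor of IL-18, was called. It stood at 7.13, 6.85 and 7.09 on the 4-week arrays, against 7.38 to 7.59 on the OVA arrays and 7.35 to 7.44 on those labelled control, below all arrays of both other groups. Its log2 change at 4 weeks was −0.49 against OVA (SE 0.09, limma adjusted p = 0.0212) and −0.36 against the arrays labelled control (SE 0.09, adjusted p = 0.0347). The first call was lost without OVA replicate 2, OVA replicate 3 or 4-week replicate 2. The second was lost after median centring, with every row tested, and without any one of the 3 control replicates, OVA replicate 2, 4-week replicate 2 or 4-week replicate 3. Il18rap, a chain of the IL-18 receptor, and Sigirr, an inhibitory receptor, did not pass in any comparison (lowest adjusted p 0.0752 and 0.0538).

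Downstream of the receptors, genes of the NF-kappaB list rose in OVA and fell at 4 weeks against OVA. Of 11 measured subunits and inhibitors, 5 rose in OVA against the arrays labelled control (Nfkb2, Nfkbib, Nfkbie, Bcl3 and Tnfaip3), none fell, and the median log2 change was 0.77, where 0.782% of all probe sets were called higher. At 4 weeks against OVA, 5 fell (Nfkb2, Relb, Nfkbib, Nfkbie and Bcl3) and none rose, with a median of −0.55, where 2.51% of all probe sets were called lower. At 4 weeks against the arrays labelled control only Nfkbia, an inhibitor that holds NF-kappaB in the cytoplasm, rose, and the median was 0.03. Bcl3, a nuclear partner of NF-kappaB, had 6.55, 6.85 and 6.48 on the 4-week arrays, 7.77, 8.61 and 8.08 on the OVA arrays, and 6.87, 6.58 and 6.37 on those labelled control. The OVA arrays were above all others. Its log2 change was 1.55 in OVA (SE 0.21, limma adjusted p = 0.016) and −1.53 at 4 weeks against OVA (SE 0.21, adjusted p = 0.00727). Nfkb2, the p100 subunit gene, changed by 0.80 and −0.76 in the same comparisons (adjusted p = 0.0209 and 0.0106). Nfkbia had 8.71, 9.30 and 8.84 at 4 weeks, 8.96, 9.78 and 8.83 in OVA, and 8.13, 8.04 and 8.04 in the arrays labelled control, with changes of 0.88 at 4 weeks (adjusted p = 0.0411) and 1.12 in OVA (adjusted p = 0.0659) against the last. In fits without 1 array, the 4-week minus OVA calls of Nfkb2, Nfkbib, Nfkbie and Bcl3 held in all 9 and that of Relb in 7 (lost without 4-week replicate 1 or 3), while the OVA calls against the arrays labelled control were lost in 2 of 9 for Bcl3 (without control replicate 2 or OVA replicate 3), 3 for Nfkb2 (without control replicate 1 or 3 or OVA replicate 3), 7 for Nfkbib, 8 for Tnfaip3 and 9 for Nfkbie, and the 4-week call of Nfkbia in 7. The number of the 11 genes called in OVA was 0 to 3 in those fits, and the number called at 4 weeks against OVA was 4 to 6.

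Of 16 measured adaptors and kinases of receptor signalling, Myd88, the adaptor, and Map3k8, a kinase that feeds the ERK pathway, rose in OVA against the arrays labelled control. Myd88 had 7.85, 7.93 and 7.75 on the 4-week arrays, 8.27, 8.56 and 8.38 on the OVA arrays, and 7.84, 7.25 and 7.39 on those labelled control (OVA log2 change 0.91, limma adjusted p = 0.0241). Map3k8 rose by 1.19 in OVA (adjusted p = 0.0185) and fell by 0.84 on the log2 scale at 4 weeks against OVA (adjusted p = 0.0275). Leaving out 1 array ended the OVA call of Myd88 in 5 and that of Map3k8 in 4 of 9 fits, and the 4-week minus OVA call of Map3k8 in 5. Ube2n, a ubiquitin-conjugating enzyme that works with TRAF6, was higher at 4 weeks than in both other groups, with 8.89, 8.72 and 8.92 on the 4-week arrays, 8.22, 7.92 and 7.60 on the OVA arrays, and 7.74, 7.62 and 7.62 on those labelled control. Its log2 change was 0.93 against OVA (SE 0.14, adjusted p = 0.00901) and 1.19 against the arrays labelled control (SE 0.14, adjusted p = 0.00261), and both calls held in all 9 such fits. Against the arrays labelled control, Traf6 (0.31) and Tab3 (0.32) also rose at 4 weeks and Tollip, a negative regulator, fell by 0.43 on the log2 scale, with adjusted p between 0.0354 and 0.0491 and calls lost in 6 or 7 of 9 fits.

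Of 21 genes known to be induced by IL-1, 2 rose in OVA against the arrays labelled control, and 12 were higher without overlap of groups (median 0.70), where 0.782% and 10.4% of all probe sets were so. At 4 weeks against OVA, 3 fell and 7 were lower without overlap (median −0.41), where 2.51% and 13.7% of all probe sets were so. At 4 weeks against the arrays labelled control 1 rose, where 7.92% of all probe sets did, and the median was 0.14. Zc3h12a, an RNase that degrades cytokine transcripts, had 5.58, 5.97 and 5.57 on the 4-week arrays, 6.65, 7.19 and 6.64 on the OVA arrays, and 5.79, 5.50 and 5.70 on those labelled control. Only the OVA arrays stood apart, with a log2 change of 1.16 against the arrays labelled control (SE 0.17, limma adjusted p = 0.0185) and of −1.12 at 4 weeks against OVA (SE 0.17, adjusted p = 0.00901). The OVA call was lost without control replicate 2 or 3, and the 4-week call held in all 9 fits without 1 array. Birc3 was the gene that rose at 4 weeks, at 6.31, 6.71 and 6.47 on the 4-week arrays, 6.66, 6.98 and 6.53 on the OVA arrays, and 5.97, 5.88 and 5.55 on those labelled control. Its change against the last was 0.70 at 4 weeks (SE 0.16, adjusted p = 0.0217) and 0.92 in OVA (SE 0.16, adjusted p = 0.0302), lost in 3 (control replicate 2 or 3, or 4-week replicate 2) and 7 of 9 such fits. The neutrophil chemokine Cxcl2 had 4.49, 5.01 and 4.66 at 4 weeks, 6.07, 8.21 and 6.30 in OVA, and 4.60, 4.58 and 4.93 in the arrays labelled control. Its OVA change of 2.15 did not pass (adjusted p = 0.0727) and its 4-week minus OVA change of −2.14 did (adjusted p = 0.0344, lost in 6 of 9 fits). Ccl20 was the third gene to fall at 4 weeks against OVA (−2.19, adjusted p = 0.0397, lost in 8 of 9 fits). The interleukin Il6 was at 2.70 to 3.01 at 4 weeks and 2.94 to 3.00 in the arrays labelled control, and in OVA at 5.12 and 4.91 on replicates 2 and 3 but 3.01 on replicate 1 (OVA change 1.37, adjusted p = 0.187). Without OVA replicate 1 its OVA change was 2.04 and passed (adjusted p = 0.00038), as did its 4-week minus OVA change (−2.13, adjusted p = 0.00134).

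**Figure D3:**
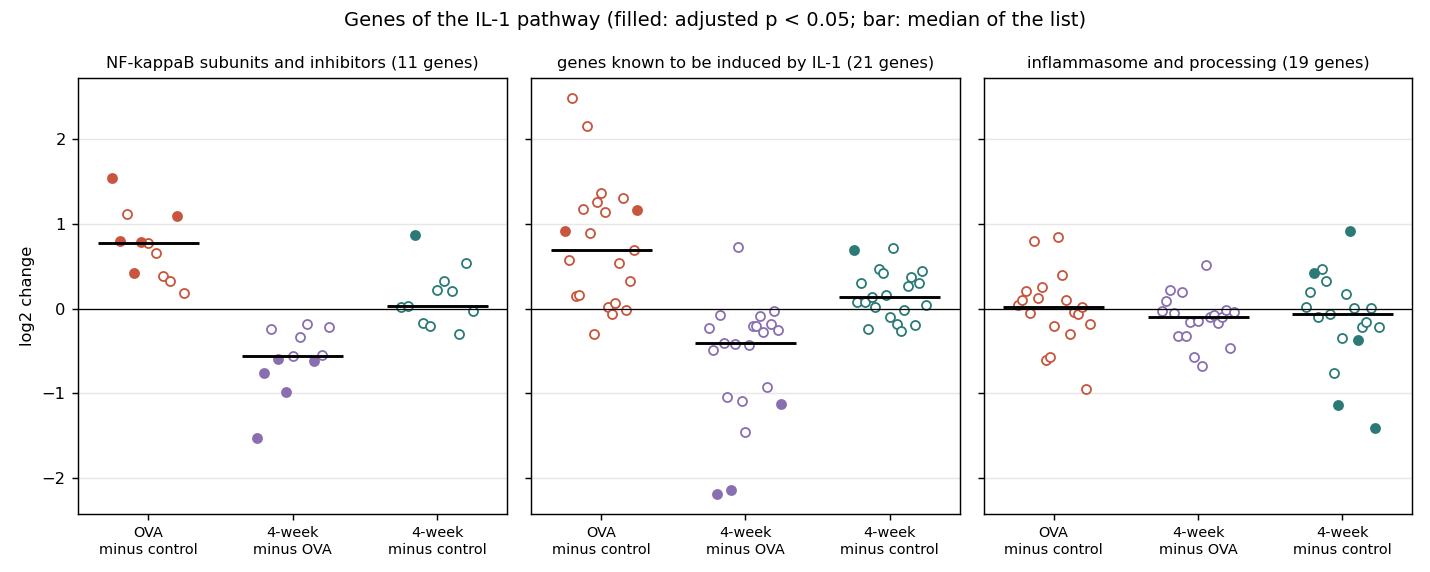
Log2 changes of the measured genes in the lists of NF-kappaB subunits and inhibitors (11), genes known to be induced by IL-1 (21) and inflammasome and processing genes (19) in the 3 comparisons (filled points have an adjusted p under 0.05, bars are list medians). The medians of the NF-kappaB and IL-1-induced lists are 0.77 and 0.70 in OVA and 0.03 and 0.14 at 4 weeks against control, while the inflammasome list has 0.03 and −0.07.

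The machinery that cleaves the family's precursors was not called in OVA. None of 19 genes passed in OVA against the arrays labelled control or at 4 weeks against OVA in limma (6 and 4 at an unadjusted p under 0.05, where 16.4% and 23.9% of all probe sets were so). Casp1, the protease for IL-1 beta and IL-18, changed by −0.05 in OVA and −0.09 at 4 weeks against the arrays labelled control, and Nlrp3, an inflammasome sensor, by −0.07 and −0.16, with adjusted p between 0.405 and 0.853. In OVA against the arrays labelled control, groups did not overlap for 3 of the 19 that were higher and 5 that were lower. Of all probe sets 10.4% and 11.1% were so. Casp4, another caspase of the list, was 1 of the higher ones (log2 change 0.80, limma adjusted p = 0.129). Casp1 lay between 4.08 and 4.34 on all 9 arrays, and Xist between 4.22 and 4.42 on those with the male pattern. Casp1 was thus not shown to lie above background. Against the arrays labelled control at 4 weeks, 2 rose and 3 fell, where 7.92% of all probe sets were called higher and 6.45% lower. An unadjusted p under 0.05 was reached there by 10 of the 19, and by 32.9% of all probe sets. Capn2, a calpain subunit gene, rose by 0.42 (SE 0.07, limma adjusted p = 0.0093) and Nek7, a partner of NLRP3, by 0.92 (SE 0.18, adjusted p = 0.0147). Prtn3 and Elane, neutrophil granule proteases that can cleave IL-1 family cytokines, fell by 1.41 (adjusted p = 0.0105) and 1.14 (adjusted p = 0.0238) on the log2 scale, and Nlrp1a, an inflammasome sensor, by 0.37 (adjusted p = 0.0217). Nlrp1a lay between 3.10 and 3.67 on all 9 arrays, about the level of Eif2s3y on the arrays without the male pattern, so it was not shown to lie above background. Capn2 and Prtn3 held in all 9 fits without 1 array, while Nek7 was lost in 1 (without 4-week replicate 2), Nlrp1a in 3 (without control replicate 2 or 3 or 4-week replicate 2) and Elane in 5. Mpo, another neutrophil granule gene, fell by 1.37 in the same comparison (adjusted p = 0.0278, lost in 5).

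The response side of IL-33 gave no call. Of 9 measured genes of that list, none passed in limma in any comparison. An unadjusted p under 0.05 was reached by 1, 3 and 1 in OVA, 4-week minus OVA and 4-week, in this order. At 4 weeks against OVA, groups did not overlap for 0 that were higher and 4 that were lower. The lower ones were Il9, Il13, Gata3 and Ccl24, where 13.7% of all probe sets were lower without overlap. Il13, a type 2 cytokine, had 5.40, 5.50 and 5.30 on the 4-week arrays, 5.53, 5.82 and 6.18 on the OVA arrays and 5.57, 5.53 and 5.53 on those labelled control. Its log2 change at 4 weeks against OVA was −0.44 (adjusted p = 0.101), and passed without OVA replicate 1 (limma adjusted p = 0.0323). Gata3, the transcription factor of type 2 lymphocytes, changed by −0.47 in that comparison (adjusted p = 0.112), and Il9 by −0.39 at 4 weeks against the arrays labelled control (adjusted p = 0.0966).

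Levels of cells that may carry these transcripts varied as well, and in whole tissue fewer cells of a type and less RNA per cell cannot be told apart. The summed level of 11 neutrophil markers ranged over 12.73 to 12.93 at 4 weeks, 12.70 to 12.95 in OVA and 11.82 to 13.00 in the arrays labelled control (log2 of the summed linear values), and overlapped throughout. Ltf made up most of this sum, with a mean of 12.22 over the 9 arrays against 9.36 for Ngp, the next brightest. The median log2 change of the 11 was −0.32 in OVA and −0.38 at 4 weeks, each against the arrays labelled control. At 4 weeks against OVA it was 0.03. Of these markers 6 had an unadjusted p under 0.05 in OVA against the arrays labelled control, with groups not overlapping for 3 that were higher and 3 that were lower. The lower ones were Ly6g (−1.58, adjusted p = 0.212), Camp (−1.17, adjusted p = 0.156) and Mpo (adjusted p = 0.182), none of them called, and Ltf, among the brightest genes at 11.12 to 12.77, had 0.67 in the other direction. Only 1 was called higher in OVA, Csf3r (1.03, limma adjusted p = 0.0443, lost in 8 of 9 fits without 1 array), which was lower at 4 weeks than in OVA (−1.02, adjusted p = 0.0212, lost in 5), and the bright S100a8 and S100a9 had −1.01 and −0.32 in OVA without passing. The summed level of 9 monocyte and macrophage markers was 10.99 to 11.47 at 4 weeks, 10.78 to 11.24 in OVA and 10.06 to 11.23 in the arrays labelled control. Lyz2, the brightest of the 9 at 9.36 to 11.13, made up most of this sum. None was called, with 4, 4 and 1 at an unadjusted p under 0.05 in OVA, 4-week minus OVA and 4-week. The median log2 changes of the 9 were 0.54, −0.45 and −0.005 in the same order. Groups did not overlap for 2 that were higher and 0 that were lower in OVA. At 4 weeks against OVA this held for 0 that were higher and 3 that were lower. The 12 mast cell and basophil markers summed to 9.40 to 9.67 at 4 weeks and 9.50 to 10.77 in OVA, against 9.04 to 9.22 in the arrays labelled control, and both allergen groups lay above the last without overlap. Of the 12, Mcpt1 was the brightest on OVA replicates 1 and 3, at 9.37 and 9.95. It had 5.98 on OVA replicate 2, 6.42 to 7.10 at 4 weeks and 3.83 to 5.08 in the arrays labelled control. At 4 weeks Kit was called higher than in the arrays labelled control (0.56, adjusted p = 0.0411, lost in 6 of 9 fits) and Mcpt8 lower (−0.46, adjusted p = 0.0225, lost in 4). Mcpt8 lay between 3.90 and 4.61 on all 9 arrays, and Xist between 4.22 and 4.42 on those with the male pattern. Mcpt8 was thus not shown to lie above background. In OVA none was called, with 9 of 12 at an unadjusted p under 0.05, where 16.4% of all probe sets were so. There, groups did not overlap for 5 that were higher and 2 that were lower (Gata2 and Mcpt8). Without OVA replicate 2, Mcpt1 (limma adjusted p = 0.00257), Tpsab1 (0.0208), Mcpt4 (0.0279) and Cpa3 (0.0319) passed in OVA against the arrays labelled control. In that fit Mcpt1 also passed at 4 weeks, against those arrays (0.00832) and against OVA (0.0165). The 6 endothelial markers summed to 9.09 to 9.33 at 4 weeks, 9.01 to 9.07 in OVA and 8.81 to 8.96 in the arrays labelled control, again without overlap between the allergen groups and the last. At 4 weeks Pecam1 (0.34, lost in 4 of 9 fits without 1 array) and Cdh5 (0.46, lost in none) were called higher than in those arrays. In that comparison groups did not overlap for 2 that were higher and 1 that was lower. The lower one was Ackr1, at 6.010 to 6.167 against 6.170 to 6.239, which was not called. The 7 basal and squamous epithelial markers summed to 9.75 to 9.86, 10.34 to 10.91 and 9.40 to 10.65 in the same group order. Sprr1a was called lower at 4 weeks against OVA (−2.72, limma adjusted p = 0.0422, lost in 7 of 9 fits). It was the brightest of the 7 on the OVA arrays, at 8.95 to 9.87, against 6.64 to 6.98 at 4 weeks. The median log2 change of the 7 in that comparison was −0.06. The 9 markers of T cells and innate lymphoid cells summed to 8.90 to 8.94, 8.90 to 9.10 and 8.84 to 9.02, with none called in limma. The values hold no zeros and no detection calls, so no marker can be called absent, and the part of any of these cells in the changes of the 7 genes was not tested.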

How the data were processed

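The authors deposited log2 expression per probe set, made with RMA per the submitters' processing notes; which program ran it is not stated there, and the log2 scale was read from the values (1.63 to 13.83). Of 35556 rows, 23410 had at least 1 gene in the platform annotation and were tested; 21789 of these had 1 gene. Groups came from the labels, 3 arrays each.

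All 9 arrays entered 1 fit in limma 3.58.1 (R 4.3.3; lmFit, contrasts.fit, eBayes; 6 residual and 2.98 prior degrees of freedom), with two-sided tests, Benjamini-Hochberg adjustment over 23410 probe sets within each comparison and a threshold of 0.05. The fit was tested on simulated data. Of several single-gene probe sets, the brightest on average was used.

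Besides the 7 measured ones, list members with an adjusted p under 0.05 were named, and up to 3 per pathway list with the smallest p. The leading markers of each cell type and the 5 genes most correlated with a called gene were named too. Casp1, Casp4, Nlrp3, Il6, some further list members and markers, and the within-array ratios were picked with their values in view. The 9 genes, the lists and the tests were chosen with earlier results of these data known.

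Alternatives were 2 other scalings, a filter on dim probe sets, other sets of rows, the compared groups only, other variance settings, array weights, a replicate block and leaving out each array. Motifs were searched with Python 3.11.15 on both strands. The number of arrays limits the precision.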

Additional observations from a re-analysis of the deposited data

How the results depend on the processing

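The log2 changes of Il1b against the arrays labelled control passed in all 18 alternative fits in OVA (adjusted p from 0.00482 to 0.0444) and at 4 weeks (0.00354 to 0.0269), and that of Il1a at 4 weeks in all 17 that held its probe set (0.00519 to 0.0348). With the compared groups only, the OVA changes of Il1a (1.35, adjusted p = 0.0555) and Il1rn (0.60, adjusted p = 0.0782) and the 4-week minus OVA change of Il1rn (−0.53, adjusted p = 0.0564) did not pass, with fewer residual degrees of freedom; the last fit holds no array labelled control. The OVA change of Il1rn also missed the threshold with every row tested (0.60, adjusted p = 0.0794). Without 1 array, the changes ranged over 1.19 to 1.53 for Il1a and 0.52 to 0.67 for Il1rn in OVA, and over −0.60 to −0.45 for Il1rn at 4 weeks against OVA. No call reversed. The dim filter removed Il1a, Il1rn, Il1r2 and Il18, and the mean over several probe sets could not be run because each gene had 1.

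The F test of Il33 (adjusted p = 0.0506) passed in 6 of the 8 alternatives that left out no array and had the test, at 0.0335 to 0.0488, and that of Il1r2 passed after quantile normalization (0.0498) and median centring (0.0494). Without OVA replicate 3, the F test of Il1rn did not pass (0.0513). The count of called probe sets was 305, 1481 and 3364 for OVA, 4-week minus OVA and 4-week, and 2910 for the F test. With the compared groups only it was 109, 737 and 2054, with every row 143 for OVA, and with 1 probe set per gene 946 for 4-week minus OVA. Without 1 array it lay between 63 and 305, 446 and 1361, 1560 and 2966, and 1195 and 2249. For the pathway lists, the NF-kappaB count in OVA was 5, and 2 with every row; the count of adaptors and kinases at 4 weeks against the arrays labelled control was 4, and 1 with every row; that at 4 weeks against OVA was 2, and 4 after median centring. The IL-1-induced count was 2 in OVA, and 0 to 3 without 1 array.

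With the replicate block, which adds the labels' replicate number to the fit, the OVA change of Il1rn did not pass (0.60, adjusted p = 0.0569) and no other call of the 7 genes in the 3 comparisons changed, while 1 inflammasome gene passed in OVA and 1 at 4 weeks against OVA, and the adaptors and kinases had 2 calls at 4 weeks against the arrays labelled control. Deviations of same-numbered arrays correlated at −0.04 to 0.33 over the group pairs, so the numbers were not taken to pair the arrays.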

Other observations

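Exactly equal log2 values on several arrays were common in the deposited table. Of 23410 tested probe sets, 12197 (52.1%) had the same value on at least 2 of the 9 arrays and 6478 (27.7%) on at least 3. Il1r2 was one of the latter, at 5.46 on control replicate 2 and on 4-week replicates 2 and 3, and Il1rap had equal values on 2 arrays. Il1a, Il1b, Il1rn, Il18 and Il33 had 9 different values each. The cause was not tested.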
